A study of Mus musculus with 9 samples.

Results

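The 40 mitosis and kinetochore genes described here drive entry into mitosis, build the spindle and the kinetochore, guard chromosome separation and cut the cell apart at cytokinesis. They were named by function, as a list of G2/M, spindle, kinetochore and cytokinesis genes, with earlier results of these data known. All 40 of them are among the 24062 genes of the count table. All 40 also passed the filter on low counts, which left 15369 genes for testing. RNA was sequenced from mouse embryonic fibroblasts of the C57BL/6 strain, cells grown from embryos, that gamma rays had made senescent. At day 10 after irradiation a lentivirus brought in a short hairpin RNA: shScr, a scrambled control, shRela-1 or shRela-2, the last 2 of them directed at Rela. NF-kB, the transcription factor, has the Rela product p65 as a subunit. There were 3 replicates of each of the 3 groups, and irradiation and infection were common to all 9 samples. Cycling cells without irradiation were not analysed here, so every level below is that of an irradiated culture. How long after infection the cells were collected, and whether infected cells were selected, the labels do not say.

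In a dividing cell, CDK1 bound to A- and B-type cyclins starts mitosis, the Polo and Aurora kinases shape the spindle, and the kinetochore ties each chromosome to microtubules. The spindle checkpoint holds back the ubiquitin ligase APC/C until every kinetochore is attached. Most genes of this programme are transcribed late in the cell cycle by the MuvB core together with B-MYB and FOXM1, and they are shut off in resting cells by the same core within the DREAM complex. Senescent cells no longer divide, and in them p21, the product of Cdkn1a, holds CDKs in check and favours DREAM. Transcripts of this programme are therefore commonly low in senescent fibroblasts.

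Total counts ran from 49774667 to 67963506 per sample. Against shScr, Rela fell to 16.0% with shRela-1 and 16.3% with shRela-2, at 13.2 to 14.8 CPM (counts scaled by library size and TMM factor) in the 6 knockdown samples against 83.2 to 86.8 CPM in shScr. The 9 fibroblast markers checked summed to 53240 to 58820 CPM in shScr, 59870 to 63020 CPM in shRela-1 and 52250 to 55180 CPM in shRela-2. Of them 2 rose and 1 fell with shRela-1, and shRela-2 lowered 1. Between hairpins 4 were lower with shRela-2 (Vim, Col3a1, Dcn and Fn1) and 1 was higher (Pdgfrb). Summed markers of macrophages (7 genes, 83.5 to 155 CPM) and endothelium (5 genes, 4.01 to 5.79 CPM) overlapped between the groups, and none of them passed the test in any comparison (0 calls). The neural markers summed to 233 to 249 CPM in shScr, 185 to 191 CPM in shRela-1 and 258 to 286 CPM in shRela-2. Of these 5 genes, 2 (Nes and Tubb3) fell with shRela-1 and Tubb3 rose with shRela-2. The 4 epithelial markers tested summed to 7.38 to 11.0 CPM in shScr, 11.9 to 20.1 CPM in shRela-1 and 6.94 to 9.34 CPM in shRela-2, and Krt18 was lower with shRela-2 than with shRela-1. The single tested muscle marker overlapped between the groups, and 0 markers of any type were at 0 in every sample. The part of these differences in marker transcripts in the results below was not tested.

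The 2 hairpins moved the mitotic genes in opposite directions. With shRela-1, 19 of the 40 genes rose and 0 fell, where 12.3% of all genes tested rose and 12.4% fell, 24.7% in all (edgeR's quasi-likelihood test, Benjamini-Hochberg adjusted p under 0.05, here and below). With shRela-2, 29 of the 40 fell and 0 rose, where 15.4% of all genes tested fell and 15.4% rose (30.9% changed). All 40 fitted values were above 0 with shRela-1 and all 40 were below 0 with shRela-2. The list's median log2 fold change was 0.41 with shRela-1 and -0.54 with shRela-2, beside medians of 0.003 and -0.002 over all genes tested. At an unadjusted p under 0.05, 29 members were higher with shRela-1 and 0 lower, and 35 were lower with shRela-2 and 0 higher. The share of all genes tested at this looser cut was not counted, so these counts have no background beside them. The comparisons against shScr share the 3 control samples. In bulk RNA, fewer cells in mitosis and less of a transcript per cell cannot be told apart.

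The direct comparison of the hairpins, which uses no control value for its fold change, gave lower levels with shRela-2 for 39 of the 40 genes, where 19.9% of all genes tested fell and 20.0% rose (39.9% changed). Its median log2 difference over the list was -0.97, beside 0.005 over all genes tested. By more than 2-fold 19 members differed, and the share of all genes tested past 2-fold was not counted. Cdk1 was the member that did not pass (-0.36 ± 0.15, SE, adjusted p = 0.0751, 95% interval from -0.69 to -0.036). With the replicate number as a block in the fit, its adjusted p was 8.09e-06 and all 40 passed. Without shRela-2 replicate 2, Spc24 did not pass (adjusted p = 0.0521). Averaged over both hairpins, 1 member, Tpx2, fell (-0.41 ± 0.093, adjusted p = 0.00911) and 0 rose, where 12.2% and 10.7% of all genes tested did so (22.8% changed). With the block 6 fell and 2 rose in this average, where 19.7% and 17.8% of all genes tested did so. Without shRela-1 replicate 1 the number that fell was 5, where 11.8% of all genes tested fell.

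**Figure D1:**
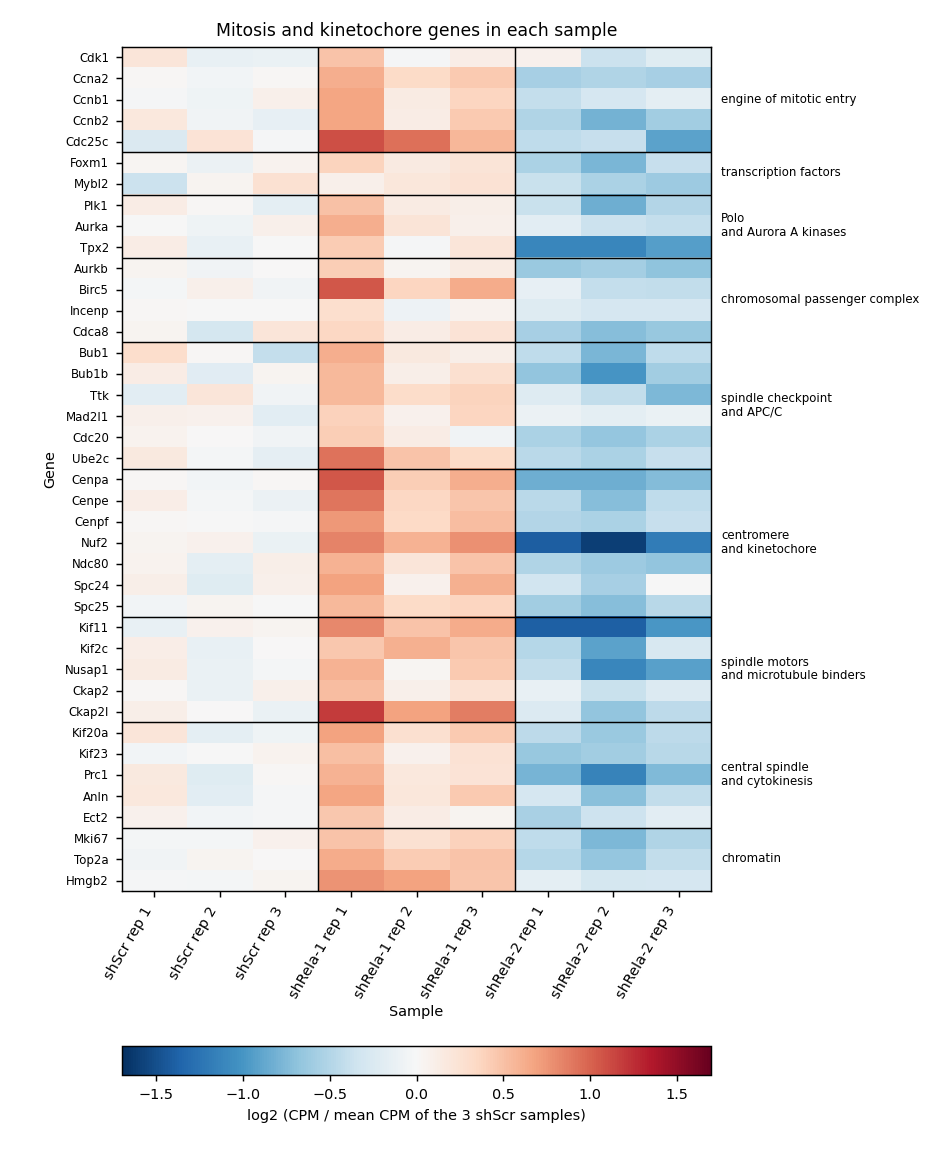
Rows are the 40 genes grouped by role, columns are the 9 samples, and colour gives log2 of a sample's CPM over the mean CPM of the 3 shScr samples. The shRela-1 columns are red in nearly every row, most of all replicate 1, and the shRela-2 columns are mostly blue, most of all in Nuf2, Kif11 and Tpx2. Cdk1 in shRela-2 replicate 1 lies above the shScr mean.

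Summed over the 40 genes, the shScr samples held 436, 395 and 411 CPM in replicates 1 to 3. The sums were 629, 484 and 524 CPM in shRela-1 and 305, 264 and 300 CPM in shRela-2. The groups did not overlap in this sum, and relative to shScr its mean was 132% with shRela-1 and 70.0% with shRela-2. In 25 of the 40 genes every shRela-2 sample was below every shScr sample and every shRela-1 sample was above them. Over all genes tested this order was not counted. It can hold for at most the 20.1% that were higher without overlap with shRela-1. Against shScr alone, 25 members were higher without overlap with shRela-1 and 37 lower with shRela-2, where 20.1% and 21.6% of all genes tested did so. Replicate 1 of shRela-1 was the highest of its group in 38 of the 40 genes, and replicate 2 was the lowest in 30. Replicate 2 of shRela-2 was the lowest of its group in 29.

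Deviations from the group means, taken over all genes tested, were correlated between same-numbered samples. This correlation was not computed for the members alone. Among the members, replicate 1 was the highest of its group in 22 in shScr and in 19 in shRela-2. Replicate 3 of shRela-2 was the highest in 18. With the replicate block, 34 members rose with shRela-1 while 38 fell with shRela-2. In that fit 20.4% of all genes tested rose and 18.9% fell with shRela-1, and 22.2% rose and 22.2% fell with shRela-2. The 6 members that did not pass with shRela-1 in that fit were Mybl2, Aurkb, Incenp, Ttk, Cdc20 and Ect2, and the 2 with shRela-2 were Mad2l1 and Spc24. Plk1, Cdca8, Bub1, Bub1b, Nusap1 and Kif23 were among those that passed with shRela-1 in the block fit alone (adjusted p = 0.0288, 0.0324, 0.039, 0.00325, 0.0158 and 0.0242). Without shRela-1 replicate 1, 15 members rose with shRela-1, where 9.89% of all genes tested rose.

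**Figure D2:**
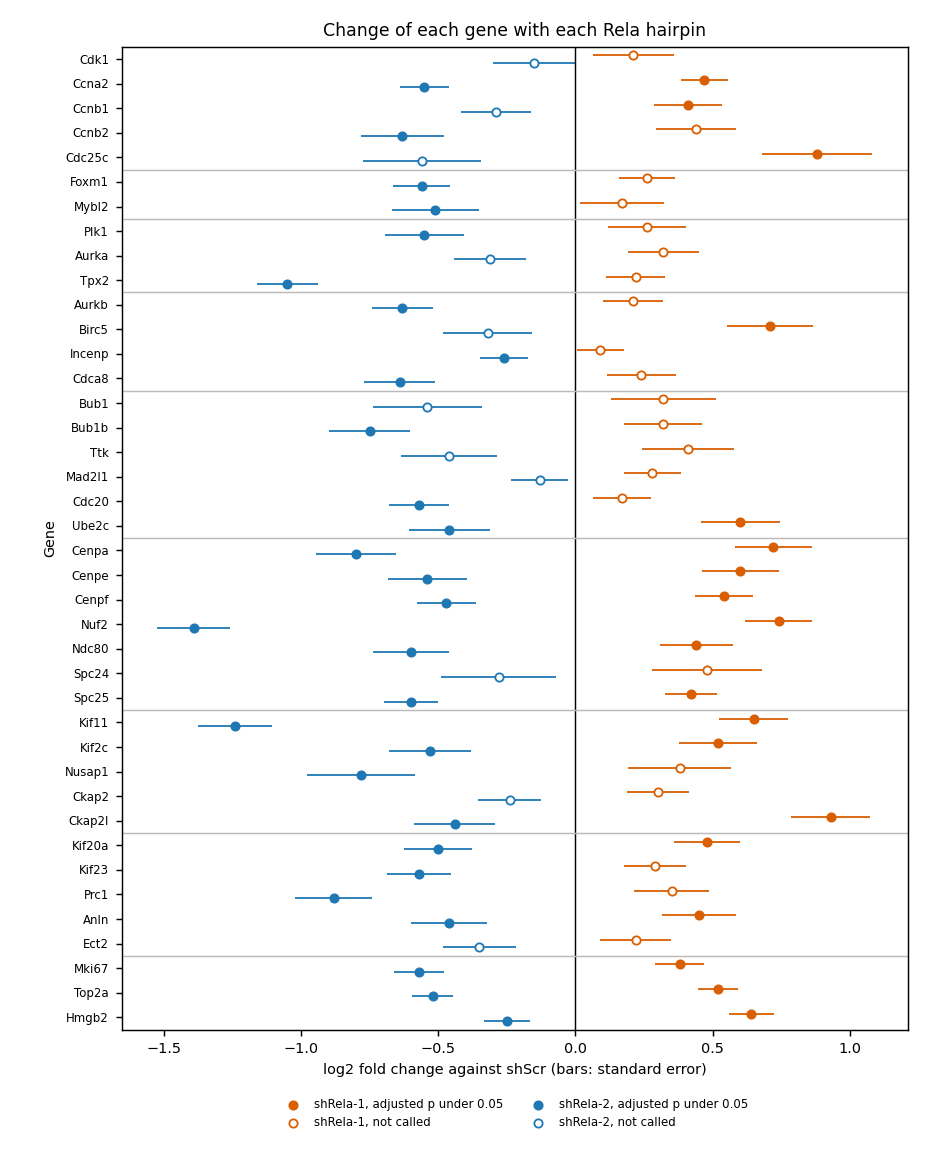
Points give the log2 fold change of each gene against shScr with shRela-1 (orange) and shRela-2 (blue), bars are standard errors, and filled points passed an adjusted p of 0.05. All orange points lie right of 0, from 0.091 for Incenp to 0.93 for Ckap2l, and all blue points lie left of it, from -0.13 for Mad2l1 to -1.39 for Nuf2.

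The promoters of these genes carry a shared sequence feature that the choice of members did not use. MuvB complexes bind the cell cycle genes homology region (CHR), written TTTGAA or, less often, TTTAAA, and NF-Y binds CCAAT boxes. Promoter windows from RefSeq (GRCm38.p6, 250 bases before the start site and 50 from it) were at hand for 32 of the 40 genes, in 34 windows. TTTGAA on either strand was in 26 of the 34 windows (76.5%), against 17.9% of all 32851 windows and 13.4% of the 17848 windows of genes with a count. Within 50 bases of the start site the shares were 67.6%, 4.94% and 3.33%. TTTAAA, which reads the same on both strands, was in 26.5% of the members' windows and in 13.2% of all windows. CCAAT on either strand was in 76.5% and 37.4%, and TTTGAA together with CCAAT in 67.6% and 6.95%. The members' windows had a median GC content of 59.0%, against 52.7% over all windows and 58.3% over those of genes with a count. TTCCCGC, a core of E2F sites, was in 0 of 34 windows and in 4.60% of all. GGCGGGAA, whose other strand contains TTCCCGC, was likewise in 0 of 34 and in 2.19% of all. The full NF-kB consensus, on either strand, was in 4 of 34 windows (11.8%, in Birc5, Ckap2l, Hmgb2 and Kif23), in 5.80% of all windows and in 7.0% of those of genes with a count. A narrower spelling, searched first, was in 1 of the 34 windows (2.94%) and in 1.63% of all. A match describes letters in these windows, and binding was not measured.

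The windows of 6 genes whose values are given in full below are shown, 5 of them with a CHR and Nuf2 with neither motif. Others with full values are not shown, among them Birc5, Ccnb1, Cenpe, Mad2l1 and Mybl2, whose windows lack TTTGAA. Capitals mark both spellings of the CHR and the CCAAT box, on either strand, and positions count from 0 at the start site. Each runs 5′ to 3′ on the gene's own strand: Cenpa at chr5:30666636-30666935 (plus), Ube2c at chr2:164769679-164769978 (plus), Top2a at chr11:99024140-99024439 (minus), Kif11 at chr19:37376132-37376431 (plus), Ckap2l at chr2:129297163-129297462 (minus) and Nuf2 at chr1:169531415-169531714 (minus).
Cenpa: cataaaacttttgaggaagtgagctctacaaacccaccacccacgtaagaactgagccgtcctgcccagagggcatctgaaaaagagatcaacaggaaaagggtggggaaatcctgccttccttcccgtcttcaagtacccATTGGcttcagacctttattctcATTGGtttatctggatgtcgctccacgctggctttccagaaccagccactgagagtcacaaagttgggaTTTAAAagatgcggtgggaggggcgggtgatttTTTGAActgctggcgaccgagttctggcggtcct
Ube2c: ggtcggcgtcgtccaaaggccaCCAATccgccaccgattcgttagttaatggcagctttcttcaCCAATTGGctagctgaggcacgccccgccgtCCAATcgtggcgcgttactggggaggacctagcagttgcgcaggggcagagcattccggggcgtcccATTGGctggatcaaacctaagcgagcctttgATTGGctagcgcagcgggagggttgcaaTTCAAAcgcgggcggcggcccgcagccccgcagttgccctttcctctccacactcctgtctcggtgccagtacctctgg
Top2a: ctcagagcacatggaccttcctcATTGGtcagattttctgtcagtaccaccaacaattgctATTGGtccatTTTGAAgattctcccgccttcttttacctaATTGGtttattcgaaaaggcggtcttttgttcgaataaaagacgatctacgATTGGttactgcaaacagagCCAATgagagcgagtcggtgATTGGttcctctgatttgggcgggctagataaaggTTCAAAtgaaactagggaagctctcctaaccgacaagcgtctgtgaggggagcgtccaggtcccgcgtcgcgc
Kif11: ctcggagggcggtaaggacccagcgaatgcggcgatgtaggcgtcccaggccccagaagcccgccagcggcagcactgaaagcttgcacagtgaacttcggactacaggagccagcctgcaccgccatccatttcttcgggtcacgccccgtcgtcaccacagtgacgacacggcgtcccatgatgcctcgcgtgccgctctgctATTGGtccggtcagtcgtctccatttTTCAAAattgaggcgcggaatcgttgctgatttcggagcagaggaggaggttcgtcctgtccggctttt
Ckap2l: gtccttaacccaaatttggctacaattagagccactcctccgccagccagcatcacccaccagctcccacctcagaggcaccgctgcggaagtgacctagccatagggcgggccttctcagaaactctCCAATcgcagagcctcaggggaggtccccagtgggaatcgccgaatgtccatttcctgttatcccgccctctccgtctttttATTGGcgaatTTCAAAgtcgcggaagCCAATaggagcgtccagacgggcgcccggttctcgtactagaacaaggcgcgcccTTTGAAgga
Nuf2: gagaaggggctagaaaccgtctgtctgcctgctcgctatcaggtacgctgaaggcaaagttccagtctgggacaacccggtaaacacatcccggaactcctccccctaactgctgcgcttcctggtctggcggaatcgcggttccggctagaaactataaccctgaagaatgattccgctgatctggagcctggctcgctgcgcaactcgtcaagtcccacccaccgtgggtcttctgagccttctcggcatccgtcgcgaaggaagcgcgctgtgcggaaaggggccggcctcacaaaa

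TTTGAA began at position 16 in Cenpa, -29 in Ube2c, -179 and -23 in Top2a, -19 in Kif11 and -30 and 41 in Ckap2l. Top2a and Ube2c each held 6 CCAAT matches and Kif11 held 1. The 24 genes with TTTGAA had median log2 fold changes of 0.41 with shRela-1 and -0.54 with shRela-2. In the 8 genes with a window and no TTTGAA the medians were 0.39 and -0.53. Nuf2, whose window holds none of the 3 motifs, had the lowest value of all members with shRela-2.

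Of the 5 genes that start mitosis, 3 rose with shRela-1 while 2 fell with shRela-2 (5 and 5 with the block). Ccna2, which encodes cyclin A2, stood at 8.26, 7.89 and 8.19 CPM in shScr replicates 1 to 3, at 12.4, 10.2 and 11.1 CPM in shRela-1 and at 5.48, 5.70 and 5.48 CPM in shRela-2. The 3 groups were fully apart. It rose with shRela-1 (0.47 ± 0.086, log2 fold change ± SE, here and below, adjusted p = 0.00268) and fell with shRela-2 (-0.55 ± 0.088, adjusted p = 9.83e-04), a 2.02-fold difference between hairpins. Ccnb1, cyclin B1, was at 9.01, 8.66 and 9.67 CPM in shScr, 14.5, 10.1 and 11.8 CPM in shRela-1 and 6.85, 7.47 and 8.10 CPM in shRela-2. It rose with shRela-1 (0.41 ± 0.12, adjusted p = 0.0355), and its value with shRela-2 was -0.29 ± 0.13 (adjusted p = 0.119, or 0.0236 with the block). Ccnb2, cyclin B2, fell with shRela-2 (-0.63 ± 0.15) and was at 0.44 ± 0.15 with shRela-1 (adjusted p = 0.0521, or 9.23e-04 with the block). Cdc25c, a phosphatase that switches CDK1 on, had 41 to 182 counts per sample and rose 1.83-fold with shRela-1 (0.88 ± 0.20), and its value with shRela-2 was -0.56 ± 0.22 (adjusted p = 0.072, or 0.0205 with the block).

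Cdk1 itself, the kinase subunit, passed against neither shScr nor the other hairpin. Between hairpins it passed with DESeq2 (adjusted p = 0.03), without shRela-1 replicate 2 (0.0413) and when shRela-2 replicate 1 was left out (0.0294). Its CPM values were 25.8, 20.5 and 20.5 in shScr, 31.1, 22.0 and 24.1 in shRela-1 and 23.4, 17.4 and 19.3 in shRela-2. All 3 groups overlapped, and replicate 1 was the highest in each of them. Its log2 fold changes were 0.21 ± 0.15 (adjusted p = 0.344) and -0.15 ± 0.15 (adjusted p = 0.493), or adjusted p = 0.00437 and 0.0244 with the block. The ratio of Ccna2, Ccnb1 and Ccnb2 together to Cdk1 within a sample was 0.932, 1.09 and 1.14 in shScr, 1.17, 1.22 and 1.29 in shRela-1 and 0.706, 0.956 and 0.910 in shRela-2. The hairpin groups did not overlap in this ratio (exact permutation test, two-sided, p = 0.1, adjusted p = 0.129 over 9 ratio comparisons), and 3 against 3 samples cannot give a p below 0.1. This ratio and the others below were chosen after the values were seen.

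Both transcription factors fell with shRela-2. Foxm1, which drives the late cell cycle genes, was at 12.8, 11.7 and 13.1 CPM in shScr, 16.3, 14.0 and 14.6 CPM in shRela-1 and 8.61, 7.34 and 9.60 CPM in shRela-2, with the groups fully apart. Its fall with shRela-2 passed (-0.56 ± 0.10, adjusted p = 0.0023), and it was at 0.26 ± 0.10 with shRela-1 (adjusted p = 0.0953, or 0.00684 with the block). Mybl2, the gene of B-MYB, was at 2.65, 3.54 and 4.09 CPM in shScr, 3.62, 3.90 and 4.06 CPM in shRela-1 and 2.64, 2.37 and 2.23 CPM in shRela-2. Its fall with shRela-2 passed (-0.51 ± 0.16, adjusted p = 0.0308), and its shRela-1 samples lay within the range of shScr (0.17 ± 0.15, adjusted p = 0.485).

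Of the 3 Polo and Aurora A genes, 0 rose with shRela-1 while 2 fell with shRela-2 (3 and 3 with the block). Tpx2, which brings Aurora A to the spindle and activates it, was at 30.2, 25.6 and 27.6 CPM in shScr, 37.6, 27.5 and 32.0 CPM in shRela-1 and 12.9, 12.9 and 14.6 CPM in shRela-2. It fell 2.07-fold with shRela-2 (-1.05 ± 0.11, adjusted p = 6.76e-05), and it had 0.22 ± 0.11 with shRela-1 (adjusted p = 0.171, or 0.0107 with the block). Aurka, the Aurora A kinase gene, was at 8.99, 8.58 and 9.57 CPM in shScr, 13.8, 10.5 and 9.62 CPM in shRela-1 and 8.01, 7.0 and 6.85 CPM in shRela-2. The groups were apart, but neither change passed: 0.32 ± 0.13 (adjusted p = 0.0957) and -0.31 ± 0.13 (adjusted p = 0.0984), or 0.00864 and 0.00759 with the block. The ratio of Tpx2 to Aurka was 3.36, 2.98 and 2.89 in shScr, 2.72, 2.62 and 3.33 in shRela-1 and 1.61, 1.84 and 2.13 in shRela-2, so that the shRela-2 samples lay below all others (exact permutation test, p = 0.1 against either group, adjusted p = 0.129). Plk1, the Polo-like kinase that promotes entry and spindle assembly, fell with shRela-2 (-0.55 ± 0.14).

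The chromosomal passenger complex, which corrects faulty attachments and marks the cleavage plane, has 4 subunits on the list, of which 1 rose with shRela-1 while 3 fell with shRela-2 (2 and 4 with the block). Birc5, survivin, was at 6.08, 6.61 and 5.99 CPM in shScr, 12.9, 8.05 and 9.65 CPM in shRela-1 and 5.64, 4.70 and 4.65 CPM in shRela-2. It rose 1.64-fold with shRela-1 (0.71 ± 0.16, adjusted p = 0.00784), and its value with shRela-2 was -0.32 ± 0.16 (adjusted p = 0.165, or 0.0206 with the block). Incenp, the scaffold of the complex, showed the smallest spread between hairpins of all members: 17.0, 16.7 and 16.6 CPM in shScr, 20.3, 15.7 and 17.4 CPM in shRela-1 and 14.4, 13.7 and 13.8 CPM in shRela-2. Its fall with shRela-2 passed (-0.26 ± 0.086, adjusted p = 0.0428), and it had 0.091 ± 0.085 with shRela-1 (adjusted p = 0.496). Aurkb, the kinase of the complex, and Cdca8, borealin, also fell with shRela-2 (-0.63 ± 0.11 and -0.64 ± 0.13).

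Of the 6 genes of the spindle checkpoint and the APC/C, 1 rose with shRela-1 while 3 fell with shRela-2 (4 and 5 with the block). Ube2c, the ubiquitin-conjugating enzyme of the APC/C, did both, with 0.60 ± 0.14 (adjusted p = 0.0117) and -0.46 ± 0.15 (adjusted p = 0.0373). Its CPM values were 9.81, 8.52 and 7.87 in shScr, 16.6, 12.2 and 11.0 in shRela-1 and 6.37, 6.03 and 6.64 in shRela-2. Cdc20, the activator of the APC/C and the member with the highest level per exon length, was at 15.6, 14.9 and 14.3 CPM in shScr, 19.9, 16.2 and 14.4 CPM in shRela-1 and 10.3, 9.48 and 10.3 CPM in shRela-2. Its fall with shRela-2 passed (-0.57 ± 0.11, adjusted p = 0.00249), and it was at 0.17 ± 0.11 with shRela-1 (adjusted p = 0.277). Bub1b, the checkpoint protein BUBR1, fell with shRela-2 (-0.75 ± 0.15). The values of the kinase genes Bub1 and Ttk with shRela-2 were -0.54 ± 0.20 and -0.46 ± 0.18 (adjusted p = 0.0637 and 0.0741, or 0.00182 and 0.0329 with the block).

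Mad2l1 encodes MAD2, the checkpoint protein that binds CDC20. Its CPM values were 9.97, 9.86 and 8.23 in shScr, 12.3, 9.87 and 12.0 in shRela-1 and 8.74, 8.35 and 8.62 in shRela-2. Each hairpin group overlapped the controls (0.28 ± 0.10, adjusted p = 0.0714, or 0.0121 with the block, and -0.13 ± 0.10, adjusted p = 0.413). The hairpin groups did not overlap each other, and the direct comparison gave -0.41 ± 0.10 (adjusted p = 0.00933).

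Of the 7 centromere and kinetochore genes, 6 rose with shRela-1 while 6 fell with shRela-2. Spc24 was the member that passed neither test. Cenpa, the histone H3 variant that marks centromeres, was at 6.72, 6.45 and 6.74 CPM in shScr, 13.7, 8.86 and 10.2 CPM in shRela-1 and 3.74, 3.72 and 3.99 CPM in shRela-2. It rose 1.65-fold (0.72 ± 0.14, adjusted p = 0.00392) and fell 1.74-fold (-0.80 ± 0.15, adjusted p = 0.00213). Cenpe, a kinetochore motor, was at 10.5, 9.50 and 9.08 CPM in shScr, 18.2, 12.4 and 13.4 CPM in shRela-1 and 7.03, 5.84 and 7.16 CPM in shRela-2 (0.60 ± 0.14 and -0.54 ± 0.14, adjusted p = 0.0109 and 0.0163). Cenpf, a large kinetochore protein, rose and fell too (0.54 ± 0.11 and -0.47 ± 0.11).

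Nuf2 had the largest difference between hairpins of the list. It lies on chr1:169497934-169531464 (GENCODE M21, GRCm38, minus strand) and encodes a subunit of the NDC80 complex, which holds microtubules at the kinetochore together with NDC80, SPC24 and SPC25. It stood at 4.37, 4.46 and 3.91 CPM in shScr, 7.63, 6.38 and 7.27 CPM in shRela-1 and 1.60, 1.40 and 1.87 CPM in shRela-2. It rose 1.67-fold with shRela-1 (0.74 ± 0.12, adjusted p = 0.00142) and fell 2.62-fold with shRela-2 (-1.39 ± 0.13, adjusted p = 3.52e-05), and the hairpins differed by 4.37-fold (adjusted p = 6.94e-07). Its partners had smaller fitted values. Ndc80 had 0.44 ± 0.13 and -0.60 ± 0.14, Spc25 had 0.42 ± 0.095 and -0.60 ± 0.098, and both passed in both directions. Spc24, at 92 to 171 counts outside shRela-2 and 71 to 96 within it, had 0.48 ± 0.20 and -0.28 ± 0.21 (adjusted p = 0.113 and 0.352, and 0.0211 for the first with the block). The ratio of Nuf2 to the sum of its 3 partners was 0.374, 0.394 and 0.328 in shScr, 0.438, 0.457 and 0.462 in shRela-1 and 0.199, 0.192 and 0.218 in shRela-2. The 3 groups did not overlap in this ratio (exact permutation test, p = 0.1 for each pair of groups, adjusted p = 0.129).

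**Figure D3:**
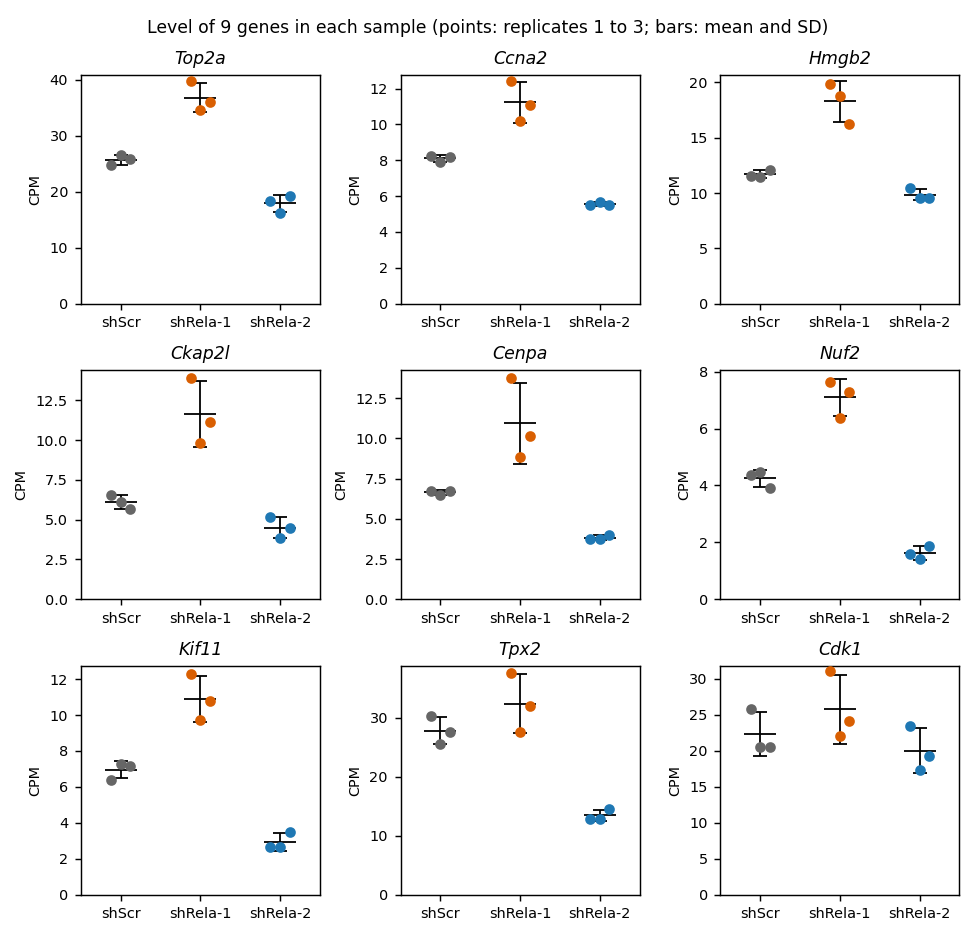
Each panel plots the CPM of 1 gene, with a point per replicate and bars for the mean and SD of 3 samples in shScr (grey), shRela-1 (orange) and shRela-2 (blue). The groups are fully apart in 7 panels, Tpx2 overlaps between shScr and shRela-1, and Cdk1 overlaps among all 3 groups.

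Of the 5 spindle motors and microtubule binders, 3 rose with shRela-1 while 4 fell with shRela-2 (5 and 5 with the block). Kif11, the kinesin that pushes spindle poles apart, was at 6.40, 7.29 and 7.19 CPM in shScr, 12.3, 9.70 and 10.8 CPM in shRela-1 and 2.66, 2.66 and 3.51 CPM in shRela-2. It rose 1.56-fold (0.65 ± 0.13, adjusted p = 0.00384) and fell 2.37-fold (-1.24 ± 0.13, adjusted p = 7.59e-05), a 3.71-fold difference between hairpins. Ckap2l, a spindle-associated protein, had the largest rise of the list with shRela-1. Its CPM values were 6.56, 6.14 and 5.66 in shScr, 13.9, 9.86 and 11.2 in shRela-1 and 5.19, 3.83 and 4.50 in shRela-2 (0.93 ± 0.14, adjusted p = 9.69e-04, and -0.44 ± 0.15, adjusted p = 0.0441). Ckap2, its relative, was at 16.0, 14.6 and 16.8 CPM in shScr, 22.8, 16.8 and 18.7 CPM in shRela-1 and 14.5, 12.2 and 13.5 CPM in shRela-2. Neither change of Ckap2 passed (0.30 ± 0.11 and -0.24 ± 0.11, adjusted p = 0.0811 and 0.143, or 0.00178 and 0.00703 with the block). Kif2c, a kinesin that takes microtubules apart, rose and fell (0.52 ± 0.14 and -0.53 ± 0.15), and Nusap1, which bundles microtubules, fell with shRela-2 (-0.78 ± 0.20).

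Genes of the central spindle and cytokinesis fell with shRela-2 in 4 of 5 cases and rose with shRela-1 in 2 (5 and 4 with the block). Anln, anillin of the contractile ring, had the highest counts of the list. It was at 44.8, 34.9 and 39.0 CPM in shScr, 63.2, 45.0 and 53.8 CPM in shRela-1 and 32.4, 24.3 and 29.7 CPM in shRela-2 (0.45 ± 0.14, adjusted p = 0.0346, and -0.46 ± 0.14, adjusted p = 0.0286). The groups were apart, by a narrow margin between the highest shScr and the lowest shRela-1 sample. Prc1, which bundles the midzone microtubules, was at 22.5, 17.4 and 20.4 CPM in shScr, 30.3, 22.8 and 23.6 CPM in shRela-1 and 11.6, 9.17 and 12.0 CPM in shRela-2. It fell 1.84-fold with shRela-2 (-0.88 ± 0.14, adjusted p = 9.16e-04) and had 0.35 ± 0.14 with shRela-1 (adjusted p = 0.0912, or 1.98e-04 with the block). The kinesin gene Kif20a rose and fell (0.48 ± 0.12 and -0.50 ± 0.12), and Kif23, a subunit of centralspindlin, fell with shRela-2 (-0.57 ± 0.12). Ect2, which activates RhoA at the cleavage site, had 0.22 ± 0.13 and -0.35 ± 0.13 (adjusted p = 0.26 and 0.0676, and 0.018 for the second with the block).

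The 3 chromatin genes changed with both hairpins, Hmgb2 with shRela-2 by a narrow margin. Top2a, topoisomerase II alpha, which untangles sister chromatids, was at 24.7, 26.6 and 25.9 CPM in shScr, 39.8, 34.6 and 36.1 CPM in shRela-1 and 18.3, 16.3 and 19.2 CPM in shRela-2. Its rise and fall were of equal size, 1.43-fold each (0.52 ± 0.072 and -0.52 ± 0.074, adjusted p = 5.03e-04 and 4.46e-04). Mki67, the proliferation antigen Ki-67 that coats mitotic chromosomes, was at 18.8, 18.7 and 20.1 CPM in shScr, 26.9, 22.9 and 25.3 CPM in shRela-1 and 14.2, 11.3 and 13.4 CPM in shRela-2 (0.38 ± 0.090 and -0.57 ± 0.091, adjusted p = 0.0105 and 9.76e-04). Hmgb2, a DNA-bending protein that is known to be lost in senescence, rose and fell as well. Its CPM values were 11.6, 11.5 and 12.1 in shScr, 19.9, 18.8 and 16.3 in shRela-1 and 10.4, 9.54 and 9.58 in shRela-2 (0.64 ± 0.082, adjusted p = 2.67e-04, and -0.25 ± 0.083, adjusted p = 0.0428).

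The 40 genes fall into classes by their calls. With shRela-1 rising and shRela-2 falling there were 16: Ccna2, Ube2c, Cenpa, Cenpe, Cenpf, Nuf2, Ndc80, Spc25, Kif11, Kif2c, Ckap2l, Kif20a, Anln, Mki67, Top2a and Hmgb2. Over all genes tested 2.45% had this combination. Another 3 rose with shRela-1 and did not pass with shRela-2 (Ccnb1, Cdc25c and Birc5), and 13 fell with shRela-2 and did not pass with shRela-1. The remaining 8, which passed against shScr with neither hairpin, were Cdk1, Aurka, Bub1, Ttk, Mad2l1, Spc24, Ckap2 and Ect2. With the block 32 genes both rose and fell, where 5.45% of all genes tested did, 2 rose alone, 6 fell alone and 0 passed with neither hairpin.

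Several of these calls rested on single settings or libraries. With limma voom, Ube2c, Ckap2l and Hmgb2 did not pass with shRela-2 (adjusted p from 0.0651 to 0.0809), and with no low count filter Hmgb2 did not (0.0513). With the 2 compared groups alone, Ccnb1 and Ndc80 did not pass with shRela-1 (0.0536 to 0.0577) and Mybl2 did not with shRela-2 (0.0582). With shRela-1, the calls of Ccnb1, Ndc80, Kif20a and Anln were lost without shRela-1 replicate 1 (adjusted p from 0.0524 to 0.123), and those of Ccnb1, Ndc80, Kif2c and Anln without shRela-1 replicate 3 (0.0542 to 0.101). Without shScr replicate 3 the calls of Ccnb1, Ube2c, Ndc80, Kif2c, Kif20a and Anln were lost (0.0541 to 0.0982), without shScr replicate 2 the same except Ube2c (0.06 to 0.124), and without shScr replicate 1 those of Ccnb1 and Ndc80 (0.0611 to 0.0792). Kif2c was also lost without shRela-1 replicate 2 (0.0774) and Anln without shRela-2 replicate 3 (0.0504). With shRela-2, leaving out shRela-2 replicate 2 lost Mybl2, Plk1, Incenp, Ube2c, Cenpe, Kif2c, Ckap2l, Anln and Hmgb2 (0.0506 to 0.151). Leaving out shRela-2 replicate 3 lost Mybl2, Incenp, Ube2c, Ckap2l, Anln and Hmgb2 (0.0588 to 0.112), and leaving out replicate 1 lost Incenp and Ube2c (0.0649 to 0.0808). Without shScr replicate 1 the calls of Incenp, Ube2c, Cenpe, Kif2c, Ckap2l, Anln and Hmgb2 were lost (0.0524 to 0.118). Without shScr replicate 2 those of Mybl2, Incenp, Ube2c, Ckap2l and Hmgb2 were lost (0.0683 to 0.0908), and without shScr replicate 3 those of Mybl2, Incenp, Kif2c, Ckap2l, Anln and Hmgb2 (0.0539 to 0.129). Without shRela-1 replicate 2 Hmgb2 was lost (0.0562), and without shRela-1 replicate 3 Incenp and Ckap2l (0.0546 to 0.0612). The value of Incenp with shRela-1, which did not pass, was -0.013 without shRela-1 replicate 1.

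Levels can be compared between genes only per length, here as CPM per kb of exon. In shScr the members ran from 0.279 for Cdc25c to 7.99 for Cdc20, with a median of 1.91 against 3.55 over the 14666 tested genes with an annotated length. Below Cdc20 came Tpx2 (5.95), Ckap2 (4.92), Cdk1 (4.51) and Anln (4.36), and the lowest before Cdc25c were Ttk (0.388), Cenpf (0.427) and Ndc80 (0.445). Cdc20 was the highest and Cdc25c the lowest in all 3 groups. Tpx2 stood in place 2 in shScr and shRela-1 and in place 8 in shRela-2, and Nuf2 went from place 35 in shScr to 33 with shRela-1 and 39 with shRela-2. The exon lengths join all annotated transcripts of a gene, so that a gene with a long rare form appears lower than it is.

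**Figure D4:**
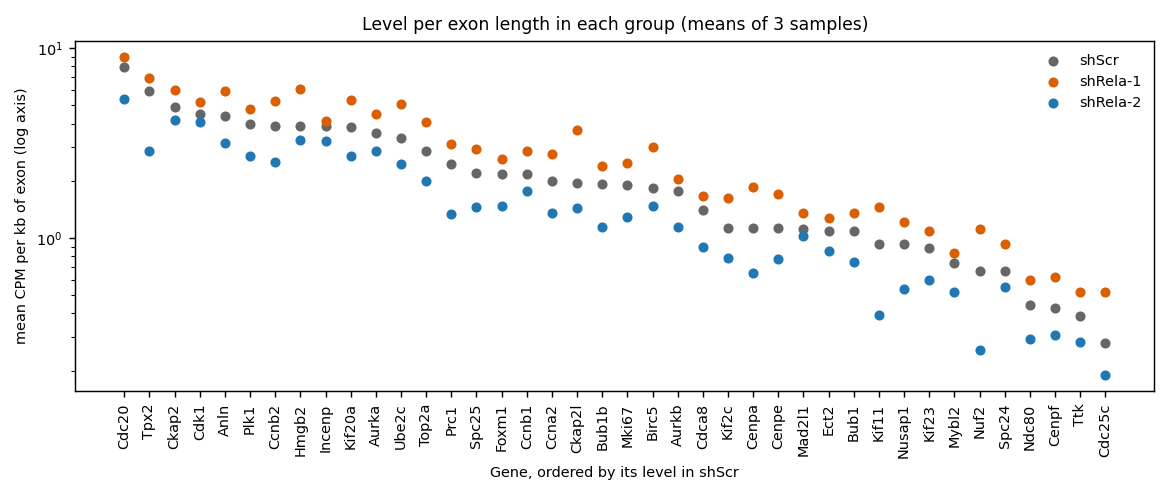
Points give the mean CPM per kb of exon over 3 samples for each gene in shScr (grey), shRela-1 (orange) and shRela-2 (blue), on a log axis, with genes ordered by shScr. The order runs from Cdc20 to Cdc25c, and in each gene the orange point is the highest and the blue point the lowest.

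The genes lie on 15 chromosomes. The exons of 10 of them overlap an annotated gene on the other strand: Ccna2 (Exosc9), Cdc25c (Gm3550), Plk1 (Gm44985), Cdca8 (9930104L06Rik), Cdc20 (Elovl1), Ube2c (Tnnc2), Nusap1 (Oip5), Ckap2l (Gm14024), Kif20a (Cdc23) and Prc1 (Rccd1). The library kit does not mark strand, so reads in those stretches cannot be assigned to either gene. On the same strand, exons of Foxm1 overlap those of Gm44596 and Tex52, and exons of Top2a overlap those of Gm23451. Reads in these shared stretches have the same limit. Ccnb1 and Ccnb2 each have 1 annotated pseudogene that carries their name and may share reads with them.

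Other genes of mitosis came from lists of 115 names, of which 109 were tested. With shRela-1, 27 rose (24.8%) and 9 fell (8.26%), where 12.3% of all genes tested rose and 12.4% fell. The median log2 fold change of the 109 was 0.14. With shRela-2, 5 rose (4.59%) and 55 fell (50.5%), where 15.4% of all genes tested rose and 15.4% fell. The median was -0.35. With the block, 42 rose and 11 fell with shRela-1, where 20.4% and 18.9% of all genes tested did so. With shRela-2, 8 rose and 68 fell in that fit, where 22.2% and 22.2% did so. The same shares over all genes stand beside the single lists below. Of 33 kinesin, spindle and cytokinesis genes, 13 rose and 1 fell with shRela-1, and 0 rose and 19 fell with shRela-2. In the 22 tested genes of the checkpoint, cohesin protection and APC/C, 4 rose and 5 fell with shRela-1, and 1 rose and 9 fell with shRela-2 (2 and 11 with the block). Anapc5, a core APC/C subunit, fell with both hairpins, from 176 to 185 CPM in shScr to 126 to 128 CPM in shRela-1 and 128 to 142 CPM in shRela-2 (-0.49 ± 0.045 and -0.42 ± 0.045, adjusted p = 2.66e-05 and 7.41e-05). Of 13 condensin and cohesin genes, 4 rose and 2 fell with shRela-1, and 0 rose and 9 fell with shRela-2. Smc2, a core of condensin, was at 21.3 to 23.1 CPM in shScr, 24.6 to 29.3 CPM in shRela-1 and 9.36 to 11.4 CPM in shRela-2 (0.32 ± 0.088 and -1.12 ± 0.092, adjusted p = 0.0229 and 1.38e-05). Wee1, the kinase that holds CDK1 off, fell from 13.3 to 14.2 CPM in shScr to 6.45 to 6.93 CPM with shRela-2 (-1.05 ± 0.081, adjusted p = 1.08e-05), and had 0.17 ± 0.078 with shRela-1 (adjusted p = 0.139, or 0.0456 with the block). The 30 tested genes of the constitutive centromere and outer kinetochore gave 2 rising and 1 falling with shRela-1 (6 and 2 with the block), and 2 rising and 14 falling with shRela-2 (4 and 15 with the block). Of 11 tested entry kinases and phosphatases, 4 rose and 0 fell with shRela-1 (7 and 0 with the block), and 2 rose and 4 fell with shRela-2.

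**Figure D5:**
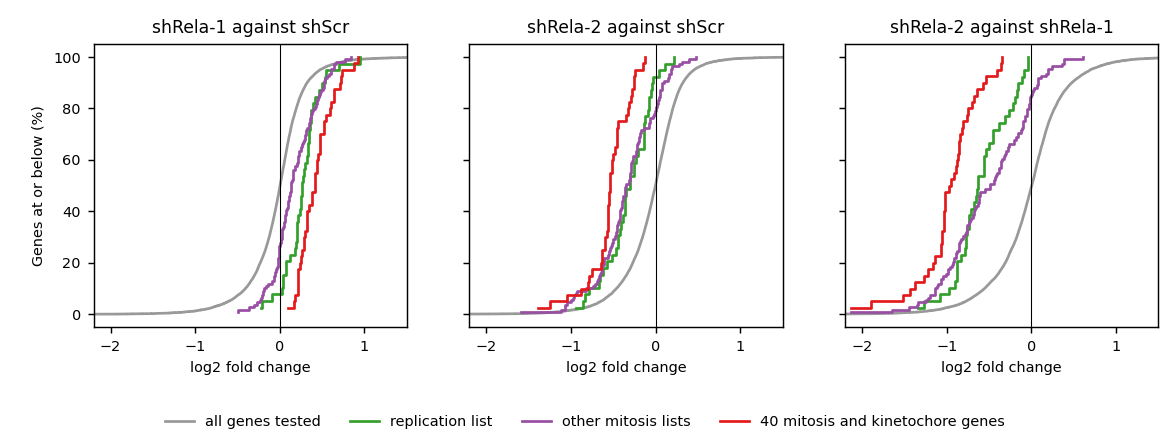
Each panel gives the cumulative share of genes (%) at or below a log2 fold change, for all genes tested (grey), the replication list (green), the other mitosis lists (purple) and the 40 mitosis and kinetochore genes (red). The red curve lies wholly right of 0 with shRela-1 and wholly left of 0 with shRela-2 and between hairpins, while the grey curve is centred at 0. The axis is drawn from -2.2 to 1.5.

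Replication genes, which are transcribed before mitosis by E2F, are given for comparison. Of 39 tested, 16 rose and 0 fell with shRela-1 (median 0.27), where 12.3% of all genes tested rose and 12.4% fell. With shRela-2, 1 rose and 19 fell (median -0.31), where 15.4% rose and 15.4% fell. Between hairpins 33 of the 39 were lower with shRela-2, where 19.9% of all genes tested were. The median there was -0.63, beside -0.97 for the mitotic genes. Whether the 2 lists differ was not tested.

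Of 13 genes of the DREAM and MuvB complexes and their partners, 4 rose (E2f5, Lin52, Lin54 and Tfdp1) and 3 fell (Dyrk1a, Lin37 and Rb1) with shRela-1, where 12.3% of all genes tested rose and 12.4% fell, and 3 rose (Cdkn1a, E2f5 and Rbl2) and 1 fell (Tfdp1) with shRela-2, where 15.4% rose and 15.4% fell. Tfdp1, the dimer partner of E2F proteins, was at 104 to 106 CPM in shScr, 133 to 141 CPM in shRela-1 and 93.2 to 97.5 CPM in shRela-2, with the groups fully apart (0.39 ± 0.036 and -0.14 ± 0.037, adjusted p = 3.35e-05 and 0.0168). Rbl2, which encodes the DREAM pocket protein p130, had -0.035 with shRela-1 and 0.30 with shRela-2. Cdkn1a was at 919, 1006 and 967 CPM in shScr, 1013, 1113 and 1036 CPM in shRela-1 and 1080, 1255 and 1112 CPM in shRela-2. It rose with shRela-2 (0.25 ± 0.063, adjusted p = 0.0107), had 0.13 ± 0.063 with shRela-1 (adjusted p = 0.169, or 0.00192 with the block), and did not pass between hairpins (0.12 ± 0.063, adjusted p = 0.142, or 0.00191 with the block).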

How the data were processed

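The deposited table holds unnormalized counts by gene symbol, with 9 columns that the authors did not pool. Per the submitters' processing notes, mm10 was the build and the tools were featureCounts 1.4.6, Subread, Bowtie2 2.2.6 and TopHat2 2.0.14, with no role or setting given. Per the labels' protocols the library kit was TruSeq RNA v2, which does not mark strand. In the table the value 1 occurs 2764 times and the value 2 occurs 7984 times. If both reads of a pair were counted, which is not stated, counting error is larger than the counts show.

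Samples were grouped by their titles. The shScr titles carry a dataset tag that the others lack, and any batch that goes with it cannot be told apart from the group. Nothing in the labels says that replicates came from separate cultures, so the p-values reflect the spread among these samples, and this spread may be technical. Every replicate pair differed by more than sampling noise (chi-square divided by its degrees of freedom, 11.3 to 106), so none was merged. The highest values were those of the pairs with shScr replicate 2.

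Counts were tested with edgeR 4.0.16 (R 4.3.3): filterByExpr, TMM factors (0.975 to 1.02), 1 mean per group over all 9 samples, and glmQLFTest, two-sided, with Benjamini-Hochberg adjustment over 15369 genes. The test was also run on simulated counts that held no replicate effect. The only requirement set was that large changes be recovered, so the run does not vouch for changes of the size seen here. CPM are TMM-scaled. Positions and exon lengths come from GENCODE M21, which is on mm10. Deviations from group means (log2 CPM of all genes tested, prior count 2) correlated at 0.189 to 0.415 in the 9 pairs of same-numbered samples from different groups. In the other 18 pairs they correlated at -0.306 to 0.0459. The main fit, on which the calls rest unless the block is named, did not use the replicate number. Only the fit with the replicate block took same-numbered samples as paired. Alternatives were DESeq2 1.42.0, limma 3.58.1 (voom), upper-quartile factors, no low count filter, the replicate block, the 2 compared groups alone, and each library left out.

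Members, lists and the naming rule were chosen with earlier results of these data known. The rule gave full values to Rela, Cdkn1a, the 2 members of each role list with the highest mean CPM, the 5 members with the smallest p in each comparison of 2 groups, and likewise 2 genes of the other mitosis and DREAM lists. Other members named with values, the 3 ratios within samples and the search for the full NF-kB consensus were chosen after values were seen.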

Additional observations from a re-analysis of the deposited data

Results flagged for a closer look

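The 2 hairpins differed in their effect on these genes by the test of the difference itself. 39 of the 40 members were lower with shRela-2 than with shRela-1 (edgeR's quasi-likelihood test, adjusted p under 0.05), where 19.9% of all genes tested were. Rela did not pass in the same comparison (0.026 ± 0.051, adjusted p = 0.726).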

How the results depend on the processing

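With the replicate block, 34 members rose with shRela-1, and in the mean of both hairpins 2 rose and 6 fell. In the same fit the other mitosis lists gave 42 rising with shRela-1, 8 rising with shRela-2 and 11 rising in the mean. The DREAM list gave 3 falling in the mean and 5 rising between hairpins. The replication list gave 1 falling with shRela-1, and 5 rising and 6 falling in the mean. Over all genes the block gave 3130 rising and 2904 falling with shRela-1, and 2740 and 3023 in the mean. Beyond the calls and counts given with their block values, it changed no other call of a member against shScr or between hairpins. With DESeq2, 3 members fell in the mean, 1 DREAM gene fell in the mean (also with limma voom) and 1 replication gene fell with shRela-1.

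Leaving out each library in turn gave 13 to 24 members rising with shRela-1, 20 to 33 falling with shRela-2, 38 to 40 lower with shRela-2 than with shRela-1, and 0 to 1 rising and 1 to 5 falling in the mean. Over all genes these fits gave 1310 to 1908 rising and 1435 to 1916 falling with shRela-1, and 1903 to 2416 falling with shRela-2. Between hairpins 2579 to 3073 rose and 2659 to 3079 fell, and in the mean 1286 to 1835 fell. The other mitosis lists gave 16 to 27 rising with shRela-1 and 2 to 7 rising in the mean. The DREAM list gave 2 to 4 rising and 0 to 3 falling with shRela-1, 0 to 1 falling with shRela-2, 1 to 5 rising and 0 to 1 falling in the mean, and 1 to 2 rising between hairpins. The replication list gave 0 to 1 falling with shRela-1 and 1 to 4 falling in the mean, and all genes gave 1043 to 1500 rising in the mean. Incenp with shRela-1 ranged from -0.013 (without shRela-1 replicate 1) to 0.17. Rela between hairpins ranged from -0.02 (without shRela-2 replicate 1) to 0.052, and was also below 0 without shRela-1 replicate 3. Neither passed in any of these fits, and the cause of the changes was not tested. Of 1358 values of 28 named genes under all alternatives, 1268 kept direction and side of the threshold, 31 newly passed, 56 no longer passed and 3 changed sign.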
